A study of Danio rerio with 6 samples.

Results

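The genes that build cholesterol and fatty acids, with the genes that take up sterol and govern the pathway, were examined in zebrafish homozygous for pikfyve-delta8 and in wild-type (WT) zebrafish. The set was given as 31 gene symbols in pathway order: the mevalonate steps, the steps between squalene and cholesterol, uptake and control, and fatty acid synthesis. Of the 31 symbols 30 were found among the 25645 genes of the expression table, and 29 had enough reads to be tested. The symbol mvdb was not matched and is not analysed here, and sqleb was too low to be tested.

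Bulk RNA sequencing compared 3 samples from fish homozygous for pikfyve-delta8 with 3 samples from WT fish. Pikfyve is a lipid kinase of endosomes and lysosomes, and pikfyve-delta8 is an allele made with CRISPR/Cas9 that the study describes as kinase domain-deficient. Tissue and age are not in the labels. Nor do these tell whether each sample was 1 animal, a pool or a repeat, so a p-value reflects only how far these samples spread, and that spread may be technical. In bulk RNA, fewer cells of a type and less RNA per cell cannot be told apart.

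In vertebrates cholesterol is made from acetyl-CoA through mevalonate, isoprenoid diphosphates, squalene and lanosterol, and the LDL receptor brings in cholesterol from outside the cell. When the endoplasmic reticulum is low in sterol, Scap carries the SREBP transcription factors to the Golgi, where they are cut, and the freed part switches on genes of sterol synthesis, LDL uptake and fatty acid synthesis. When sterol is plentiful, Insig proteins hold Scap and SREBP in the endoplasmic reticulum. The roles given below are those known from the mammalian counterparts.

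Of the 29 tested genes, 26 were higher in pikfyve-delta8 samples than in WT samples and 0 were lower at an adjusted p under 0.05. Across all 21104 tested genes, 25.1% were called higher and 23.0% lower. The 3 genes not called were idi1, dhcr7 and srebf1. At least 2-fold higher expression with a call was found for 14 of the 29, against 7.43% of all genes. The 3 pikfyve-delta8 values all lay above the 3 WT values for 26 of the 29, as they did for 30.1% of all genes. On the deposited TPM scale (a level per transcript length), a look added after the data were seen, the groups did not overlap for 21 of the 29, against 20.9% of all genes. The median log2 fold change of the 29 genes was 0.94, and that of all tested genes was 0.0039. Calls here and below are from edgeR's quasi-likelihood test with Benjamini-Hochberg adjustment over all tested genes. Values are given in CPM (counts divided by library size times TMM factor), in replicate order, and log2 fold changes are pikfyve-delta8 minus WT ± SE.

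**Figure D1:**
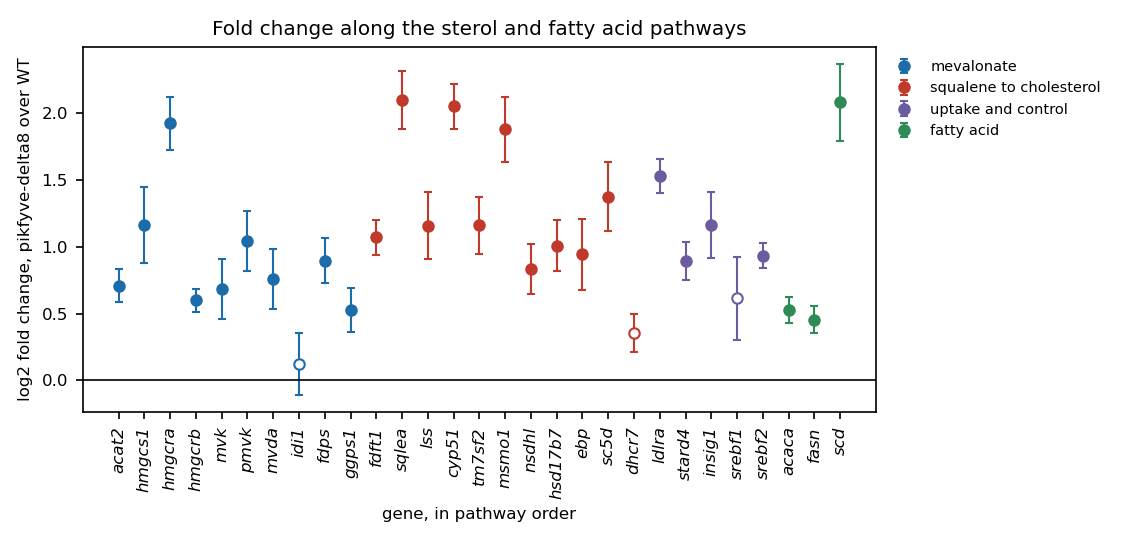
Log2 fold change (vertical axis, pikfyve-delta8 over WT) of the 29 tested genes in pathway order, with bars of 1 SE (n = 3 per genotype). Filled points passed an adjusted p of 0.05 and open points (idi1, dhcr7 and srebf1) did not. All points lie above 0 (idi1 is below 0 when scaled by library size alone), with hmgcra, sqlea, cyp51, msmo1 and scd between 1.88 and 2.10.

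Total estimated counts were 14677252 to 14949605 per sample, so that 3 counts, the limit that a count of 0 allows, were 0.191 to 0.218 CPM (counting error only). Of 21104 genes 10140 differed between the genotypes, and the pikfyve-delta8 samples varied more among themselves than the WT samples, with a median SD of log2 CPM per gene of 0.19 among pikfyve-delta8 samples and 0.10 among WT samples. The edited gene pikfyve had 61.2, 63.2 and 73.6 CPM in pikfyve-delta8 samples 1, 2 and 3, against 56.6, 53.8 and 52.1 CPM in WT samples 1, 2 and 3 (log2 fold change 0.29 ± 0.09, adjusted p = 0.0209). Since a total over the gene says nothing of the edited bases, it is no check of the genotypes. Among the sterol genes pikfyve-delta8 sample 2 stood apart from the other 2 mutant samples, at lower values. Over all genes it lay farthest from WT on the first principal component (73.7% of the variance), at 51.3, 60.8 and 49.8 for pikfyve-delta8 samples 1, 2 and 3, against -54.8, -53.9 and -53.2 for WT samples.

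The first part of the pathway joins acetyl units into mevalonate and turns mevalonate into isoprenoid diphosphates. Of its 10 tested genes 9 were higher in pikfyve-delta8 samples, 3 of them at least 2-fold, and the median log2 fold change was 0.73. Across all tested genes 25.1% were called higher, and 7.43% were called at least 2-fold higher. Their TPM summed to 308, 197 and 358 in pikfyve-delta8 samples, against 169, 166 and 184 in WT samples.

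Hmgcra encodes an HMG-CoA reductase, the rate-limiting enzyme of the pathway. It had 83.9, 51.2 and 87.4 CPM in pikfyve-delta8 samples 1, 2 and 3, against 17.7, 20.2 and 20.6 CPM in WT samples 1, 2 and 3. Every pikfyve-delta8 value lay above every WT value, and the group means differed 3.80-fold (log2 fold change 1.93 ± 0.20, adjusted p = 0.00017). Its paralog hmgcrb encodes a second HMG-CoA reductase and had 42.6, 47.2 and 45.002 CPM in pikfyve-delta8 samples, against 27.1, 30.5 and 31.4 CPM in WT samples. It too was higher without overlap, by 1.52-fold (log2 fold change 0.60 ± 0.09, adjusted p = 0.000367), and its pikfyve-delta8 samples were close to each other.

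Hmgcra held a larger share of the 2 reductase transcripts in every pikfyve-delta8 sample than in any WT sample. On the TPM scale hmgcra made up 61.1% ± 8.12 of the pair in pikfyve-delta8 samples and 39.0% ± 0.556 in WT samples (SD, n = 3 each). The ratio of hmgcra to hmgcrb was 1.93, 1.07 and 1.92 in pikfyve-delta8 samples, against 0.622, 0.647 and 0.648 in WT samples. Hmgcra was the higher of the 2 in every pikfyve-delta8 sample and the lower in every WT sample. The log2 ratio differed by 1.31 with an exact two-sided permutation p of 0.1, the smallest that 3 against 3 samples allow, and 0.15 after Benjamini-Hochberg adjustment over the 3 gene pairs compared. Together the 2 genes had 41.8 ± 8.03 TPM in pikfyve-delta8 samples and 19.3 ± 1.56 TPM in WT samples.

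**Figure D2:**
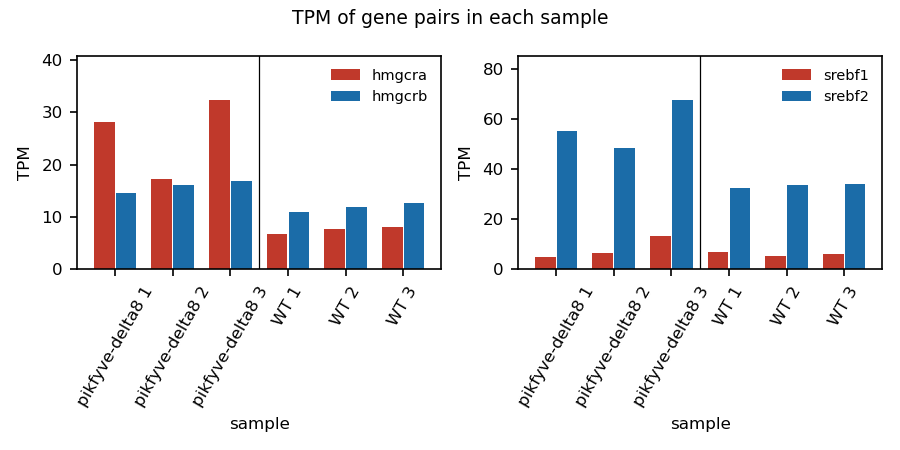
TPM (vertical axis) of hmgcra and hmgcrb, left, and of srebf1 and srebf2, right, in each of the 6 samples. Bars are single samples; hmgcra stands above hmgcrb in all 3 pikfyve-delta8 samples and below it in all 3 WT samples, and srebf2 stands above srebf1 in all 6.

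Hmgcs1 encodes the cytosolic HMG-CoA synthase, which makes the substrate of the reductases. It had 279, 145 and 314 CPM in pikfyve-delta8 samples 1, 2 and 3, against 108, 102 and 120.0 CPM in WT samples 1, 2 and 3. The groups did not overlap, though pikfyve-delta8 sample 2 lay much nearer to WT than samples 1 and 3 did (2.24-fold, log2 fold change 1.16 ± 0.28, adjusted p = 0.016). Without pikfyve-delta8 sample 2 the log2 fold change of hmgcs1 was 1.43. This call was lost without WT sample 1 (adjusted p = 0.0520), WT sample 2 (0.0523), pikfyve-delta8 sample 1 (0.0580) or pikfyve-delta8 sample 3 (0.0865), and the adjusted p over all 17 alternatives ran between 2.55e-06 and 0.0865. Acat2, the thiolase that joins 2 acetyl-CoA, was higher by 1.63-fold, with 43.1, 30.3 and 40.1 CPM in pikfyve-delta8 samples, against 22.8, 23.3 and 23.4 CPM in WT samples (log2 fold change 0.71 ± 0.12, adjusted p = 0.00123).

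Pmvk, the kinase that forms mevalonate diphosphate, was a low gene that was higher without overlap. It had 4.38, 3.71 and 5.55 CPM in pikfyve-delta8 samples, against 1.78, 2.46 and 2.37 CPM in WT samples (2.06-fold, log2 fold change 1.05 ± 0.22, adjusted p = 0.00372). Fdps, which makes farnesyl diphosphate, had 96.4, 61.9 and 100.3 CPM in pikfyve-delta8 samples, against 44.5, 45.2 and 49.4 CPM in WT samples (1.86-fold, log2 fold change 0.90 ± 0.17, adjusted p = 0.00274). Mvk, the mevalonate kinase, and mvda, the mevalonate diphosphate decarboxylase, were closer to the threshold. Mvk had 7.04, 4.51 and 8.43 CPM in pikfyve-delta8 samples, against 3.81, 4.41 and 4.23 CPM in WT samples (log2 fold change 0.68 ± 0.22, adjusted p = 0.0288). Mvda had 27.9, 14.4 and 26.2 CPM in pikfyve-delta8 samples, against 13.3, 13.7 and 13.4 CPM in WT samples (log2 fold change 0.76 ± 0.22, adjusted p = 0.0212). In both genes pikfyve-delta8 sample 2 lay just above the highest WT sample in CPM. In TPM it lay inside the WT range for mvk, at 3.22 against 3.20 to 3.56, and below all WT samples for mvda, at 13.4 against 14.5 to 14.6. Without that sample the log2 fold change was 0.90 for mvk and 1.001 for mvda. Both calls were lost when any 1 of the samples other than pikfyve-delta8 sample 2 was left out, with an adjusted p of 0.0682 to 0.103 for mvk and 0.0622 to 0.1004 for mvda. Over all 17 alternatives the adjusted p ran between 0.00185 and 0.117 for mvk and between 4.42e-05 and 0.1004 for mvda.

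The other 2 genes of these steps followed other patterns. Idi1, the isomerase that interconverts the 2 isoprenoid building blocks, had 73.4, 38.7 and 73.7 CPM in pikfyve-delta8 samples 1, 2 and 3, against 55.2, 56.8 and 58.98 CPM in WT samples 1, 2 and 3. Samples 1 and 3 of pikfyve-delta8 lay above all WT samples and sample 2 lay below them all, and no difference was called (log2 fold change 0.12 ± 0.23, adjusted p = 0.699). Without pikfyve-delta8 sample 2 the log2 fold change of idi1 was 0.37 with an adjusted p of 0.00287, against 0.00287 to 0.965 over all 17 alternatives. Ggps1, which makes geranylgeranyl diphosphate for protein prenylation, had 30.2, 50.7 and 37.9 CPM in pikfyve-delta8 samples, against 27.3, 26.3 and 28.9 CPM in WT samples (log2 fold change 0.53 ± 0.17, adjusted p = 0.0278). Like hmgcrb it had its highest CPM in pikfyve-delta8 sample 2, although in TPM hmgcrb was highest in sample 3 (14.6, 16.1 and 16.9). Without pikfyve-delta8 sample 2 the log2 fold change of ggps1 was 0.31 (adjusted p = 0.0414). In TPM pikfyve-delta8 sample 1 lay inside the WT range for ggps1, at 9.7 against 9.58 to 10.94. The ggps1 call was lost without WT sample 1 (0.0852), WT sample 2 (0.0920), WT sample 3 (0.0633) or pikfyve-delta8 sample 3 (0.101), within 0.0023 to 0.123 over all alternatives.

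The second part of the pathway runs between farnesyl diphosphate and cholesterol. Of its 11 tested genes 10 were higher in pikfyve-delta8 samples, 8 of them at least 2-fold, with a median log2 fold change of 1.16. The shares of all tested genes were 25.1% called higher and 7.43% called at least 2-fold higher. Summed TPM of its 12 genes was 504, 287 and 530 in pikfyve-delta8 samples, against 177, 163 and 190 in WT samples, a ratio of means of 2.49.

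Sqlea encodes squalene monooxygenase, which adds the first oxygen and is a second control point of the pathway. It had 50.04, 28.2 and 46.2 CPM in pikfyve-delta8 samples 1, 2 and 3, against 8.90, 9.07 and 11.02 CPM in WT samples 1, 2 and 3. The lowest pikfyve-delta8 value was well above the highest WT value, and its 4.29-fold difference was the highest fitted value of the 29 genes, with scd, cyp51 and hmgcra within 1 SE of it (log2 fold change 2.10 ± 0.22, adjusted p = 0.000126). Its paralog sqleb had 10, 10 and 2 estimated counts in pikfyve-delta8 samples, against 8, 14 and 8 in WT samples, and was not tested. On the TPM scale sqlea made up 98.1% ± 1.495 of the pair in pikfyve-delta8 samples and 91.6% ± 3.17 in WT samples (exact two-sided permutation p = 0.1, adjusted 0.15), and the counts of sqleb limit this ratio.

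Cyp51 and msmo1 act on lanosterol and the sterols made from it. Cyp51, the lanosterol demethylase, had 199, 126 and 191 CPM in pikfyve-delta8 samples 1, 2 and 3, against 39.1, 41.3 and 44.1 CPM in WT samples 1, 2 and 3 (4.14-fold, log2 fold change 2.05 ± 0.17, adjusted p = 3.95e-05). Msmo1, the methylsterol monooxygenase, had 208, 109 and 194 CPM in pikfyve-delta8 samples 1, 2 and 3, against 44.5, 43.4 and 50.98 CPM in WT samples 1, 2 and 3 (3.68-fold, log2 fold change 1.88 ± 0.24, adjusted p = 0.00084). Neither gene overlapped between the genotypes, and in both the WT samples lay close together while pikfyve-delta8 sample 2 was the lowest mutant. On the TPM scale msmo1 was the highest of the 30 genes in pikfyve-delta8 samples, with 147 ± 48.7 TPM in pikfyve-delta8 samples and 44.5 ± 4.52 TPM in WT samples. Hmgcs1 was the highest in WT, with 93.5 ± 37.1 TPM in pikfyve-delta8 samples and 46.4 ± 4.56 TPM in WT samples. The WT samples of these 2 genes overlapped in TPM, so their order in WT is within the spread.

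Fdft1, the squalene synthase that commits isoprenoid units to sterol, had 27.1, 19.9 and 26.2 CPM in pikfyve-delta8 samples, against 10.99, 11.6 and 12.3 CPM in WT samples (2.10-fold, log2 fold change 1.07 ± 0.13, adjusted p = 0.000163). Sc5d, a sterol desaturase near the end of the pathway, had 25.8, 13.5 and 28.7 CPM in pikfyve-delta8 samples, against 8.39, 8.75 and 9.09 CPM in WT samples (2.59-fold, log2 fold change 1.38 ± 0.26, adjusted p = 0.00282). Both were higher in every pikfyve-delta8 sample than in any WT sample. The same held for lss, the lanosterol synthase, which averaged 22.1 ± 7.41 CPM in pikfyve-delta8 samples and 9.89 ± 1.67 CPM in WT samples (log2 fold change 1.16 ± 0.25, adjusted p = 0.00574). Tm7sf2, a sterol reductase, averaged 34.9 ± 10.4 CPM in pikfyve-delta8 samples and 15.6 ± 1.51 CPM in WT samples (log2 fold change 1.16 ± 0.21, adjusted p = 0.00263). Hsd17b7 and nsdhl, which work with msmo1 in removing methyl groups, and ebp, a sterol isomerase, were higher by 2.01-fold, 1.78-fold and 1.92-fold. Their adjusted p-values were 0.00238 for hsd17b7, 0.00637 for nsdhl and 0.0196 for ebp. Ebp had 28.3, 13.98 and 30.1 CPM in pikfyve-delta8 samples, against 13.03, 11.6 and 13.1 CPM in WT samples. Its pikfyve-delta8 sample 2 lay just above WT in CPM and inside the WT range in TPM, at 13.7 against 12.8 to 14.98. Without that sample the log2 fold change of ebp was 1.22, and its call was lost when any 1 of the samples other than pikfyve-delta8 sample 2 was left out (adjusted p 0.0546 to 0.102, within 1.83e-05 to 0.102 over all alternatives).

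Dhcr7, the reductase of the last step to cholesterol, was the gene of these steps that was not called. It had 31.8, 20.9 and 25.3 CPM in pikfyve-delta8 samples 1, 2 and 3, against 21.1, 19.5 and 20.4 CPM in WT samples 1, 2 and 3. Samples 1 and 3 of pikfyve-delta8 lay above WT and sample 2 lay within the WT range (log2 fold change 0.35 ± 0.14, adjusted p = 0.0636). Without pikfyve-delta8 sample 2 the log2 fold change of dhcr7 was 0.49 with an adjusted p of 0.00683, and over all 17 alternatives its adjusted p ran between 0.00683 and 0.317.

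**Figure D3:**
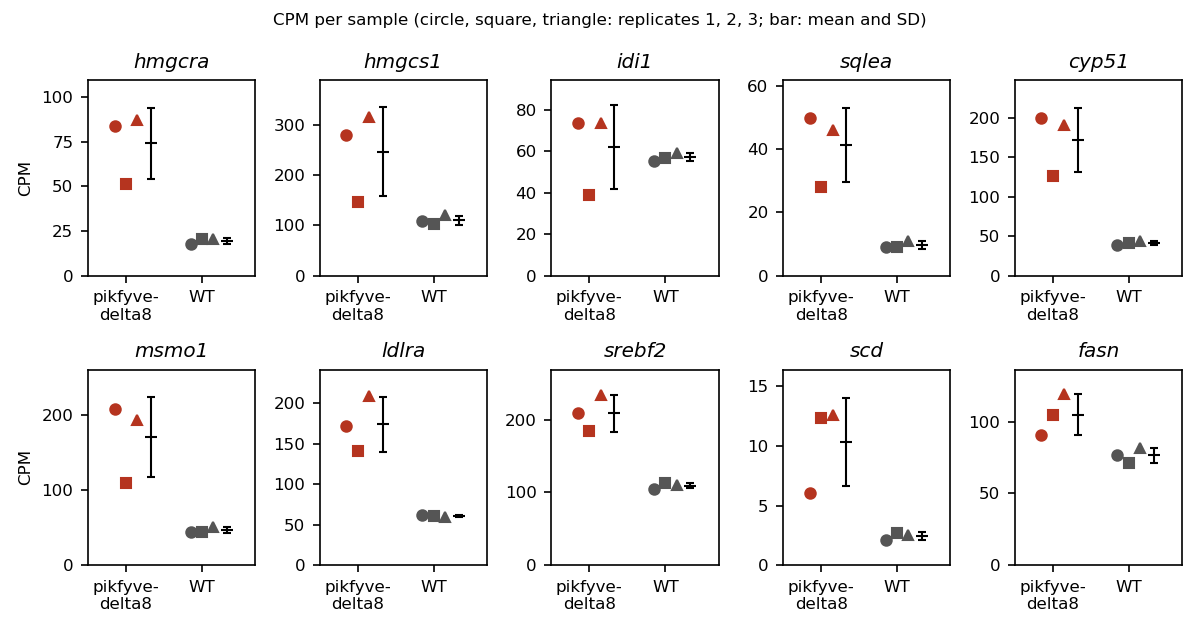
CPM (vertical axes, each starting at 0) of 10 genes in the pikfyve-delta8 and WT samples, with replicates 1, 2 and 3 as circle, square and triangle and bars for mean and SD (n = 3). The square of pikfyve-delta8 lies lowest of the mutants in the sterol genes hmgcra, hmgcs1, idi1, sqlea, cyp51 and msmo1, and the circle lies lowest in scd and fasn.

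Of the 5 genes of uptake and control 4 were higher, beside 25.1% of all tested genes, and the median log2 fold change was 0.93. Ldlra, an LDL receptor, had 172, 141 and 209 CPM in pikfyve-delta8 samples 1, 2 and 3, against 61.8, 60.6 and 58.9 CPM in WT samples 1, 2 and 3 (2.88-fold, log2 fold change 1.53 ± 0.13, adjusted p = 2.25e-05). The WT samples lay within 3 CPM of each other, and the lowest pikfyve-delta8 sample was above every one of them. A second LDL receptor gene, ldlrb, averaged 73.01 ± 11.1 CPM in pikfyve-delta8 samples and 32.5 ± 1.15 CPM in WT samples and was also higher (log2 fold change 1.17 ± 0.11, adjusted p = 3.01e-05). Stard4, a soluble carrier of sterol between membranes, had 22.8, 17.03 and 20.001 CPM in pikfyve-delta8 samples, against 9.21, 12.3 and 10.6 CPM in WT samples (log2 fold change 0.90 ± 0.14, adjusted p = 0.000762). Its groups did not overlap.

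Insig1, the sterol-responsive anchor of Scap, had 86.4, 47.2 and 50.96 CPM in pikfyve-delta8 samples 1, 2 and 3, against 27.1, 31.7 and 23.6 CPM in WT samples 1, 2 and 3. It was higher by 2.24-fold without overlap (log2 fold change 1.16 ± 0.25, adjusted p = 0.00781), with pikfyve-delta8 sample 1 far above the other 2 mutants, and without that sample its log2 fold change was 0.84. Srebf2, which encodes the SREBP most tied to sterol genes, had 209, 184 and 234 CPM in pikfyve-delta8 samples 1, 2 and 3, against 105, 113 and 110.0 CPM in WT samples 1, 2 and 3. Its pikfyve-delta8 samples were all above WT, by 1.91-fold on average (log2 fold change 0.93 ± 0.09, adjusted p = 4.81e-05). Srebf1, whose products act more on fatty acid genes, had 13.5, 17.98 and 32.7 CPM in pikfyve-delta8 samples 1, 2 and 3, against 15.7, 12.6 and 13.8 CPM in WT samples 1, 2 and 3. Its pikfyve-delta8 sample 1 lay inside the WT range and sample 3 far above it, and no difference was called (log2 fold change 0.61 ± 0.31, adjusted p = 0.149). Without pikfyve-delta8 sample 1 its log2 fold change was 0.86 and its adjusted p 0.0251, within 0.0251 to 0.412 over all alternatives. The ratio of srebf1 to srebf2 in TPM was 0.0907, 0.137 and 0.196 in pikfyve-delta8 samples, against 0.209, 0.156 and 0.176 in WT samples, and these ranges overlapped (exact two-sided permutation p = 0.3, adjusted 0.3).

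The 3 genes of fatty acid synthesis were all higher, beside 25.1% of all tested genes, with a median log2 fold change of 0.53. Scd, a stearoyl-CoA desaturase that makes monounsaturated fatty acids, had 6.03, 12.4 and 12.6 CPM in pikfyve-delta8 samples 1, 2 and 3, against 2.10, 2.66 and 2.56 CPM in WT samples 1, 2 and 3 (4.23-fold, log2 fold change 2.08 ± 0.29, adjusted p = 0.000428). Acaca, the acetyl-CoA carboxylase that makes malonyl-CoA, had 66.5, 67.1 and 83.02 CPM in pikfyve-delta8 samples, against 49.2, 48.3 and 52.8 CPM in WT samples (1.44-fold, log2 fold change 0.53 ± 0.10, adjusted p = 0.00163). Fasn, the fatty acid synthase, had 90.5, 104 and 119 CPM in pikfyve-delta8 samples, against 76.5, 71.3 and 81.3 CPM in WT samples (1.37-fold, log2 fold change 0.46 ± 0.10, adjusted p = 0.00502). All 3 were higher without overlap in CPM, scd by the most, although it was the lowest of the 3 in CPM. With scaling by library size alone the fasn call was lost (log2 fold change 0.32, adjusted p = 0.0559, which is the highest over all alternatives; the lowest was 0.000334). Acaca was the one of the 30 genes with estimated counts that were not whole, as can arise where reads are divided between genes.

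Paralogs of 2 of these enzymes lie outside the set, and the difference between paralogs was not tested. Scdb, a second stearoyl-CoA desaturase, had 13.8, 17.2 and 19.2 CPM in pikfyve-delta8 samples, against 30.6, 35.1 and 35.4 CPM in WT samples and was lower in every pikfyve-delta8 sample (log2 fold change -1.01 ± 0.13, adjusted p = 0.000177). In TPM scdb was higher than scd in every sample. Scdb averaged 10.6 ± 2.22 TPM in pikfyve-delta8 samples and 23.9 ± 1.73 TPM in WT samples, and scd 4.13 ± 1.59 and 1.08 ± 0.115 TPM. Acacb, the second acetyl-CoA carboxylase, averaged 93.7 ± 9.999 CPM in pikfyve-delta8 samples and 92.9 ± 2.57 CPM in WT samples, and was not called (log2 fold change 0.01 ± 0.09, adjusted p = 0.914).

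The order of the pikfyve-delta8 samples differed between the arms of the set. Sample 2 was the lowest of the 3 mutants for 19 of the 21 tested genes of the mevalonate and squalene steps, with hmgcrb and ggps1 as exceptions, and for all 11 of the squalene to cholesterol steps. For scd, fasn and acaca it was the lowest in 0 of 3 in CPM, and sample 1 was the lowest in all 3. For acaca samples 1 and 2 were close, at 66.5 and 67.1 CPM. In estimated counts sample 2 was the lowest for acaca, with 925.85, 921.59 and 1212.5 in pikfyve-delta8 samples 1, 2 and 3. Across all tested genes sample 2 was the lowest mutant for 30.98%, and among the 5295 genes called higher for 25.7%. For sample 1 these shares were 33.1% and 39.1%. Of fatty acid genes outside the set, acacb and fads2 were lowest in sample 2, and scdb and elovl6 in sample 1. The ratio of sample 2 to the mean of samples 1 and 3 had a median of 0.598 over the 21 sterol synthesis genes, against 0.991 over all tested genes.

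Sample 2 was still above every WT sample for 27 of the 29 genes, all but idi1 and dhcr7, in CPM. In TPM it was so for 22 of the 29, and mvk, mvda, nsdhl, ebp and srebf1 joined the exceptions. The share of all genes with sample 2 above every WT sample was not counted. All 3 pikfyve-delta8 samples lay above every WT sample for 30.1% of all genes in CPM and 20.9% in TPM. Summed TPM of the 22 sterol synthesis genes was 812, 484 and 888 in pikfyve-delta8 samples, against 346, 329 and 374 in WT samples. Pikfyve-delta8 sample 2 thus lay between the other mutants and WT in these sums, though not over all genes. For the 29 genes the median SD of log2 CPM was 0.43 among pikfyve-delta8 samples and 0.10 among WT samples. Without pikfyve-delta8 sample 2, 28 of the 29 genes were called higher. Without 1 of the other samples the count was 21 without WT sample 1, WT sample 2 or pikfyve-delta8 sample 3, 22 without WT sample 3 and 23 without pikfyve-delta8 sample 1. Over all genes 5295 were called higher with all samples and 5091 without pikfyve-delta8 sample 2. Without WT sample 1, 2 or 3 the all-gene number was 4144, 4197 or 4138. Without pikfyve-delta8 sample 1 or 3 it was 5176 or 5484.

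**Figure D4:**
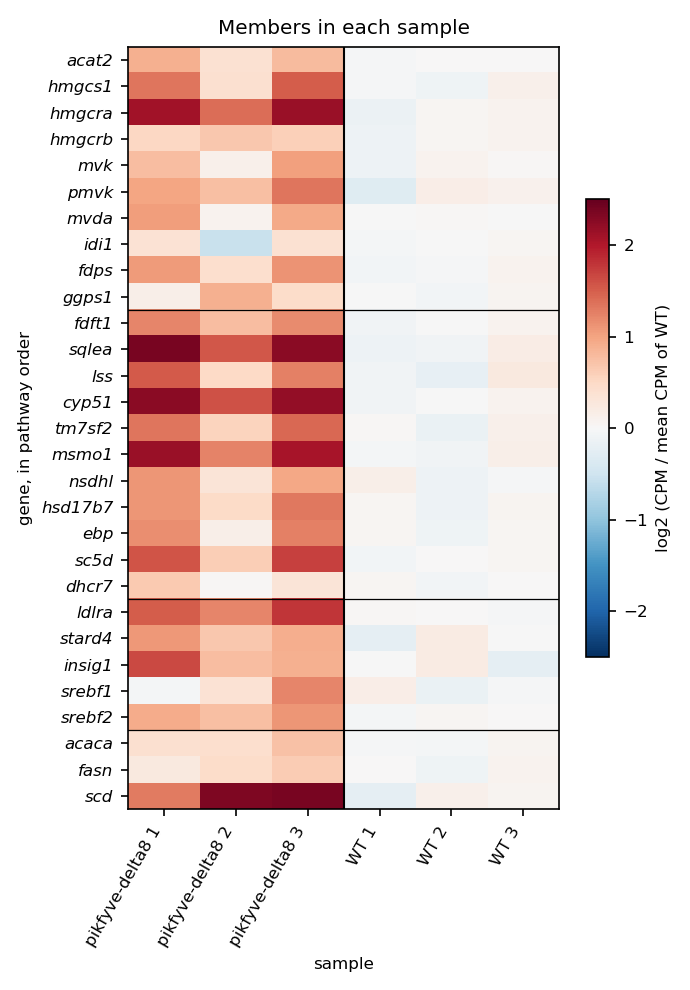
Each tested gene (rows, in pathway order, with lines between the 4 arms) in each sample (columns), as log2 of its CPM over the mean CPM of the WT samples. The column of pikfyve-delta8 sample 2 is paler than its neighbours through the mevalonate and squalene rows other than hmgcrb, ggps1 and idi1. In the idi1 row it lies below WT and its neighbours above. In the fatty acid rows it is not the palest mutant column.

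Markers of cell types were set beside these values. For every marker list the calls stand beside 25.1% higher and 23.0% lower of all genes, and several lists lie near those shares. None of the markers found in the table was at 0 in all samples. The sums are of deposited TPM, without the TMM factors that the calls use (0.923 to 0.996 in pikfyve-delta8 samples, 1.03 to 1.07 in WT samples). Calls and sums are thus on different scales. Liver markers, of an organ that makes much cholesterol, were called higher for 5 and lower for 2 of 12, and summed to 13074 to 13670 TPM in pikfyve-delta8 samples and 15070 to 16259 TPM in WT samples. The liver markers called higher were fga, fgb, fgg, hpda and cp, and those called lower were tfa and serpina1. Fabp10a was not called. Of the liver sum 62.3% was apoa2, which was not called (log2 fold change -0.09 ± 0.08, adjusted p = 0.392). The other liver markers summed to 4949 to 5543 TPM in pikfyve-delta8 samples and 5618 to 6007 TPM in WT samples. Intestine markers were higher for 4 and lower for 1 of 8, with 3486 to 4136 TPM in pikfyve-delta8 samples and 5234 to 5314 TPM in WT samples. Of the intestine sum 55.3% was fabp2, and the other markers summed to 1907 to 2142 TPM in pikfyve-delta8 samples and 1915 to 2068 TPM in WT samples. Fat cell markers were higher for 2 and lower for 0 of 4 tested (6 listed), with 378 to 408 TPM in pikfyve-delta8 samples and 236 to 267 TPM in WT samples. Without fabp4a, 48.8% of the fat cell sum, these were 221 to 248 TPM in pikfyve-delta8 samples and 91.7 to 100.4 TPM in WT samples.

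Among markers of the nervous system, those of neurons were lower for 8 of 8, with 456 to 632 TPM in pikfyve-delta8 samples and 975 to 1019 TPM in WT samples. Markers of myelinating glia, cells with high sterol synthesis, were higher for 1 and lower for 5 of 8, with 178 to 199 TPM in pikfyve-delta8 samples and 246 to 258 TPM in WT samples. Without mbpb, 48.5% of the myelinating glia sum, these were 85.45 to 99.6 TPM in pikfyve-delta8 samples and 131 to 141 TPM in WT samples. Astroglia markers were higher for 3 and lower for 1 of 6, with 1211 to 1427 TPM in pikfyve-delta8 samples and 1328 to 1445 TPM in WT samples. Without fabp7a, 40.9% of the astroglia sum, these were 812 to 996 TPM in pikfyve-delta8 samples and 694 to 709.6 TPM in WT samples.

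Genes listed as neutrophil markers, cpa5 among them, were higher for 6 of 6. They summed to 2704 to 2881 TPM in pikfyve-delta8 samples and 2001 to 2094 TPM in WT samples. Of this sum 91.3% was cpa5, a carboxypeptidase gene, so the sum is mostly the level of that gene and is not read as a neutrophil level. Without cpa5 the other markers summed to 287, 337 and 325 TPM in pikfyve-delta8 samples, against 99.9, 104 and 104 TPM in WT samples. Mpx, the neutrophil peroxidase, had 40.3, 79.8 and 46.9 TPM in pikfyve-delta8 samples, against 4.34, 4.33 and 3.86 TPM in WT samples, with sample 2 the highest. Macrophage markers were higher for 1 and lower for 2 of 5, with 25.5, 57.7 and 32.5 TPM in pikfyve-delta8 samples 1, 2 and 3 and 29.9 to 33.1 TPM in WT samples, so that sample 2 stood highest. Of the macrophage sum 58.7% was lygl1. Without lygl1 the other markers summed to 10.9, 18.3 and 15.9 TPM in pikfyve-delta8 samples, against 14.2, 14.1 and 13.0 TPM in WT samples. Steroidogenic markers were called for 0 of 3 tested, with 14.5 to 17.4 TPM in pikfyve-delta8 samples and 17.9 to 21.3 TPM in WT samples. Without star, 70.4% of the steroidogenic sum, these were 4.99 to 5.54 TPM in pikfyve-delta8 samples and 4.48 to 5.80 TPM in WT samples. Apoa2, fga, fgb, fgg, tfa, fabp10a, fabp2, fabp4a, mbpb, fabp7a, cpa5, mpx, lygl1 and star were singled out after their values were seen. The part of these shifts in the sterol and fatty acid gene values was not tested.

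Lists of genes with related functions were read in the same way. Of 9 other sterol enzymes 6 were higher and 0 lower, beside 25.1% and 23.0% of all genes, with a median log2 fold change of 0.65. Erg28, a scaffold of the sterol demethylation enzymes, averaged 5.77 ± 0.721 CPM in pikfyve-delta8 samples and 1.65 ± 0.336 CPM in WT samples (log2 fold change 1.80 ± 0.21, adjusted p = 0.000117). Tmem97, a sterol-binding membrane protein, averaged 35.3 ± 7.86 CPM in pikfyve-delta8 samples and 13.96 ± 0.909 CPM in WT samples (log2 fold change 1.34 ± 0.16, adjusted p = 0.000166). Pora, a reductase that passes electrons to cyp51 and sqle enzymes, averaged 106 ± 6.38 CPM in pikfyve-delta8 samples and 64.99 ± 1.18 CPM in WT samples (log2 fold change 0.70 ± 0.07, adjusted p = 5.73e-05). Of 13 genes of the isoprenoid branches, which use farnesyl or geranylgeranyl diphosphate for other products, 4 were higher and 1 lower, with a median of 0.21, beside the same 25.1% and 23.0% of all genes. Nus1 and dhdds, the pair that makes dolichol chains, were among the higher ones at log2 fold changes of 0.68 and 0.55 (adjusted p = 0.00428 and 0.00318).

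Genes of the machinery that controls SREBP were called at shares close to the 25.1% higher and 23.0% lower of all genes, with 4 higher and 4 lower of 15 tested (17 listed) and a median log2 fold change of 0.04. Scap, the escort of SREBP, averaged 37.7 ± 3.97 CPM in pikfyve-delta8 samples and 33.4 ± 0.677 CPM in WT samples and was not called (log2 fold change 0.17 ± 0.09, adjusted p = 0.137). Insig2, the second Insig gene, averaged 5.68 ± 0.279 CPM in pikfyve-delta8 samples and 6.34 ± 1.80 CPM in WT samples and was not called (log2 fold change -0.16 ± 0.21, adjusted p = 0.57). Amfra and amfrb, ubiquitin ligases that act on HMG-CoA reductase, were higher at log2 fold changes of 0.60 and 2.27 (adjusted p = 0.00122 and 6.82e-05). Amfra averaged 87.2 ± 13.3 CPM in pikfyve-delta8 samples and 57.5 ± 2.49 CPM in WT samples. Amfrb was a low gene, at 6.92 ± 1.35 CPM in pikfyve-delta8 samples and 1.43 ± 0.382 CPM in WT samples. Rnf145a, another ligase gene of this list, was lower at -0.56 ± 0.14 (adjusted p = 0.00876), and in all 17 alternatives. Erlin1 and erlin2, which bind sterol-regulated proteins in the endoplasmic reticulum, were lower at -0.37 and -0.55 (adjusted p = 0.00148 and 0.00178).

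Of 35 tested genes (38 listed) of sterol uptake, transport, esterification and export 13 were higher and 7 lower, beside 25.1% and 23.0% of all genes, with a median of 0.02. Npc1 and npc2 move cholesterol out of lysosomes. Npc1 averaged 169 ± 12.8 CPM in pikfyve-delta8 samples and 87.6 ± 1.96 CPM in WT samples (log2 fold change 0.95 ± 0.08, adjusted p = 1.42e-05). Npc2 averaged 120.3 ± 6.49 CPM in pikfyve-delta8 samples and 60.7 ± 3.73 CPM in WT samples (log2 fold change 0.99 ± 0.08, adjusted p = 1.21e-05). Both were higher in every pikfyve-delta8 sample. Soat1, which esterifies cholesterol for storage, was higher (log2 fold change 0.87 ± 0.15, adjusted p = 0.00116). The HDL receptor scarb1 was lower, at 16.3 ± 2.37 CPM in pikfyve-delta8 samples and 43.1 ± 3.65 CPM in WT samples (log2 fold change -1.40 ± 0.12, adjusted p = 1.82e-05). The cholesterol exporter abca1a was called (log2 fold change 0.41 ± 0.13, adjusted p = 0.0299), but only in 10 of 17 alternatives: the call was lost without WT sample 1 (0.0772), WT sample 2 (0.0847) or WT sample 3 (0.102), and without pikfyve-delta8 sample 3 the log2 fold change was 0.22 (adjusted p 0.00264 to 0.227 over all alternatives). Its paralog abca1b was not called (log2 fold change 0.11 ± 0.12, adjusted p = 0.493). Abcg5, another sterol exporter of the list, was lower, at 3.72 ± 0.585 CPM in pikfyve-delta8 samples and 9.02 ± 1.07 CPM in WT samples. Its log2 fold change was -1.28 ± 0.17 (adjusted p = 0.000235), and it was called in all 17 alternatives.

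Other genes of fatty acid and triglyceride synthesis were 14 higher and 15 lower of 42 tested (45 listed), beside 25.1% higher and 23.0% lower of all genes, with a median log2 fold change of -0.02. Lpin1, a phosphatidate phosphatase of triglyceride synthesis, averaged 356 ± 68.8 CPM in pikfyve-delta8 samples and 112 ± 5.80 CPM in WT samples (log2 fold change 1.67 ± 0.13, adjusted p = 1.94e-05). Elovl1b, an elongase of very long fatty acids, averaged 127 ± 4.84 CPM in pikfyve-delta8 samples and 51.3 ± 3.04 CPM in WT samples (log2 fold change 1.31 ± 0.07, adjusted p = 2.21e-06). Elovl4b, another elongase, averaged 13.1 ± 3.64 CPM in pikfyve-delta8 samples and 65.1 ± 2.09 CPM in WT samples (log2 fold change -2.32 ± 0.16, adjusted p = 1.21e-05). Gpam, which starts glycerolipid synthesis, averaged 19.3 ± 1.76 CPM in pikfyve-delta8 samples and 38.9 ± 0.470 CPM in WT samples (log2 fold change -1.01 ± 0.09, adjusted p = 2.47e-05). Lpin1 and elovl1b were thus higher while elovl4b and gpam were lower. Elovl6, an SREBP target in mammals that lengthens the product of fasn, was lower, at 10.7 ± 0.710 CPM in pikfyve-delta8 samples and 16.98 ± 1.63 CPM in WT samples (log2 fold change -0.67 ± 0.12, adjusted p = 0.00112). Fads2, a desaturase of polyunsaturated fatty acids, had 57.2, 35.7 and 55.7 CPM in pikfyve-delta8 samples, against 29.7, 34.1 and 38.1 CPM in WT samples (log2 fold change 0.55 ± 0.18, adjusted p = 0.0344). Pikfyve-delta8 sample 2 was the lowest mutant for fads2 too and lay inside the WT range, and without it the log2 fold change of fads2 was 0.73. Its call was lost without WT sample 1 (0.119), WT sample 2 (0.0906), pikfyve-delta8 sample 1 (0.110) or pikfyve-delta8 sample 3 (0.166), within 0.000347 to 0.166 over all alternatives.

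**Figure D5:**
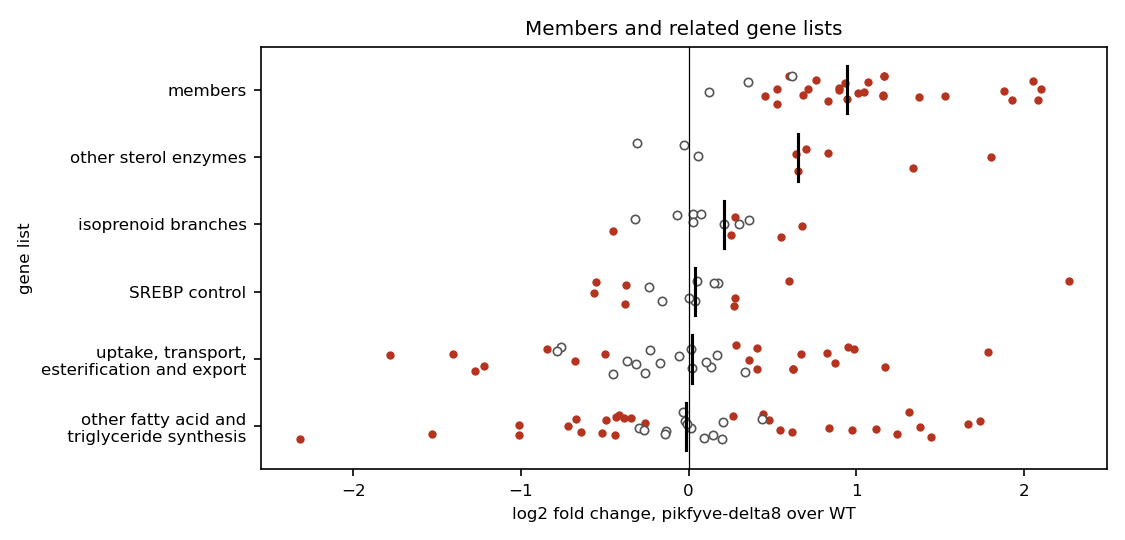
Log2 fold change (horizontal axis, pikfyve-delta8 over WT) of each tested gene of the set (top row) and of the 5 related lists, with filled points past an adjusted p of 0.05, open points not past it and a bar at each median. The set lies above 0 (idi1 is below 0 when scaled by library size alone) with a median of 0.94, and the other fatty acid and triglyceride genes spread to both sides.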

How the data were processed

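RNA of 6 zebrafish samples, 3 homozygous for pikfyve-delta8 and 3 WT, was sequenced. Samples were grouped and numbered by their titles. Libraries were circularized cDNA of fragmented mRNA, per the labels' protocols. Without settings or order, the submitters' processing notes list RSEM 1.3.1, Bowtie2 and DESeq2 1.4.5, with GRCz11 as the build. No source used here gives the strandedness, so antisense reads cannot be told apart. Genomic positions and sequences are not given here.

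The table's columns are counts, FPKM and TPM, per the file headers. The deposited counts are estimated counts, with fractional values at 10.7% to 11.6% of genes per sample (tolerance 0.005). The authors' deposited FPKM and TPM values scale these counts by transcript length and depth, and TPM was used for levels compared between genes and for ratios within a sample. Of the symbols 20 occurred more than once, none of them in the set.

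Rounded estimated counts went into edgeR 4.0.16 under R 4.3.3 (filterByExpr, TMM, robust quasi-likelihood F-test on genotype, two-sided, Benjamini-Hochberg over all 21104 tested genes, threshold 0.05). The SE is the log2 fold change divided by the square root of F. Ratios of gene pairs were tested with an exact permutation test. The procedure was run on simulated counts that had the same dispersion per gene in both groups. That run does not cover the larger spread of the pikfyve-delta8 samples. Samples of a group differed by more than counting noise, with a mean chi-square per gene (1 for counting noise) of 12.1 to 20.2 between pikfyve-delta8 samples and 2.41 to 2.90 between WT samples. Alternatives were other scalings (upper quartile, DESeq2's size factors, library size alone), other filters, offsets for transcript length, leaving out each sample, the replicate number as a block, DESeq2 1.42.0, and limma 3.58.1 on log2(FPKM + 1) and log2(FPKM + 0.1). Floors cover counting error only, because PCR copies of a molecule cannot be recognised.

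The 31 genes, the related lists and the markers were chosen with earlier results of these data known. From each related list the text could name up to 4 genes per direction with the smallest p among those called with a mean count of at least 20, and 14 further genes whatever their result, of which lipa and acly were not matched by symbol and are not analysed here and 2 are not reported here. Rnf145b was named in addition, after its values were seen. Figures were drawn with matplotlib 3.10.9.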

Additional observations from a re-analysis of the deposited data

How the results depend on the processing

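The count of genes of the set called higher stayed between 21 and 28 of 29 over 17 alternatives, with 0 called lower in each, and their median log2 fold change stayed between 0.70 and 1.17. The count was 22 with library size alone, 22 with each FPKM scale and 26 with DESeq2, which called 4611 of all genes higher. Of the 26 genes called, 20 were called in every alternative, and hmgcs1, mvk, mvda, ggps1, ebp and fasn lost the call in at least 1. The direction reversed for 3 named genes that were not called (rnf145b was not followed over the alternatives). For idi1 the log2 fold change was -0.015 with library size alone, -0.078 on log2(FPKM + 1) and -0.086 on log2(FPKM + 0.1), and -0.039 to 0.37 with 1 sample left out. For abca1b it was -0.032 with library size alone, -0.049 and -0.055 on the FPKM scales, and -0.022 to 0.25 with 1 sample left out. For acacb it was -0.050 with upper-quartile scaling, -0.13 with library size alone, -0.00068 with DESeq2, -0.12 and -0.13 on the FPKM scales, and -0.051 to 0.097 with 1 sample left out.

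With library size alone the all-gene median was -0.14, against 0.0039 with TMM, a shift of the log2 scale that also moved the all-gene calls to 3824 higher and 6561 lower, against 5295 and 4845. The FPKM scales gave 3568 higher and 6252 lower, and 3569 higher and 6189 lower. With library size alone mvk, mvda, ggps1 and fasn lost the call, and on both FPKM scales mvk, mvda, ggps1 and ebp did. On log2(FPKM + 1) the log2 fold change was 0.59 for pmvk, 1.195 for scd and 0.33 for acaca, and outside the set 1.26 for amfrb and 0.57 for soat1. With the replicate number as a replicate block, 27 of the 29 genes were called higher, with dhcr7 added (adjusted p = 0.0462), beside 4967 of all genes. Same-numbered samples did not deviate together (r = -0.0745, 0.0503 and -0.0479 across genes). With 3 samples a group these values cannot settle whether the numbers pair the samples, and the labels do not say. With 3 samples a group, the larger spread of the pikfyve-delta8 samples limits the precision, and sqleb, at 2 to 14 counts a sample, is too low to be compared.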
